A study of Rattus norvegicus with 12 samples.

Results

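The comparison described here sets the liver of untreated male rats directly against the liver of untreated female rats, on 2 of the 12 arrays of a study of growth hormone (GH) and sex in rat liver. Both arrays hybridised a male and a female RNA together, the female RNA being Alexa 555 and the male RNA Alexa 647 on array 1, with the dyes exchanged on array 2. All rats were Fischer 344 animals of 12 weeks with their pituitaries in place and no hormone given. Each RNA was a pool of 3 to 4 livers, and per the series' design text 2 male and 2 female pools were made, a separate pair for each array. The members were the probes whose signal was well above background (the scanner software's flag) in at least 1 of the sexes on both arrays, which held for 25714 of the 41012 distinct probes. Other arrays whose ratios are given here compared hypophysectomised males with hypophysectomised females of the same strain and age. They also compared hypophysectomised rats of each sex with intact rats of that sex, again as dye-swapped pairs. Hypophysectomy is the removal of the pituitary gland, and the rats of these comparisons received no hormone either. The remaining arrays set hypophysectomised males given GH, 1 or 2 times, against hypophysectomised males. Their ratios are not given, but they entered the shared fit.

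Male rats release GH in pulses with intervals of very low hormone between them, while female rats release it more evenly through the day. The GH receptor of the hepatocyte signals through the kinase JAK2 to the transcription factors STAT5A and STAT5B, and the pattern of the signal is known to set the sex difference of many liver transcripts. The liver proteins best known for it are steroid-hydroxylating cytochromes P450, steroid-conjugating enzymes and, in male rats, the lipocalins secreted into the urine. The comparison asks which transcripts differ between the sexes when the pituitary is intact.

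Values are log2 ratios of male to female signal, averaged over the arrays, ± the SE of the limma fit (n = 2 arrays), so that 1 unit is a doubling and a negative value is higher in females. A probe or gene was called where the p-value, adjusted by the Benjamini-Hochberg method over all tested probes, was under 0.05. Each sex had n = 2 pools. The p-values rest on a spread pooled over all 12 arrays and 6 comparisons, so they do not measure the spread between the intact pools alone. Only 2 arrays bear on each value, which limits its precision.

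Sex moved a large share of the liver transcriptome, mostly by small amounts. Of the 25714 probes, 3983 were called (15.5%), 2074 of them higher in males (8.07%) and 1909 higher in females (7.42%). The median size of the ratio was 0.43 among called probes and 0.10 among all tested probes. A difference of at least 2-fold was called at 316 probes higher in males (1.23%) and 228 higher in females (0.887%). Above 16-fold there were 31 probes higher in males and 14 higher in females. Counted by gene, with the brightest probe standing for each, 2055 of 11786 named genes were called (17.4%), 1059 higher in males (8.99%) and 996 higher in females (8.45%). The count rests on both arrays and on the normalization. It was 1292 probes without array 1, 1448 without array 2, and 261 where arrays were centred on their median in place of loess, while 52.1% of the calls were male-higher in the main fit and 38.6% with the scanner software's own processed signals. With that centring 21 of the 39 gene lists and families that held a call had none. The call threshold passed between genes of very similar values, with Rnase6 (-0.17 ± 0.05) and Otos (0.19 ± 0.05) just inside it and Slc25a12 (0.24 ± 0.07) and Btg3 (-0.27 ± 0.08) just outside.

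**Figure D1:**
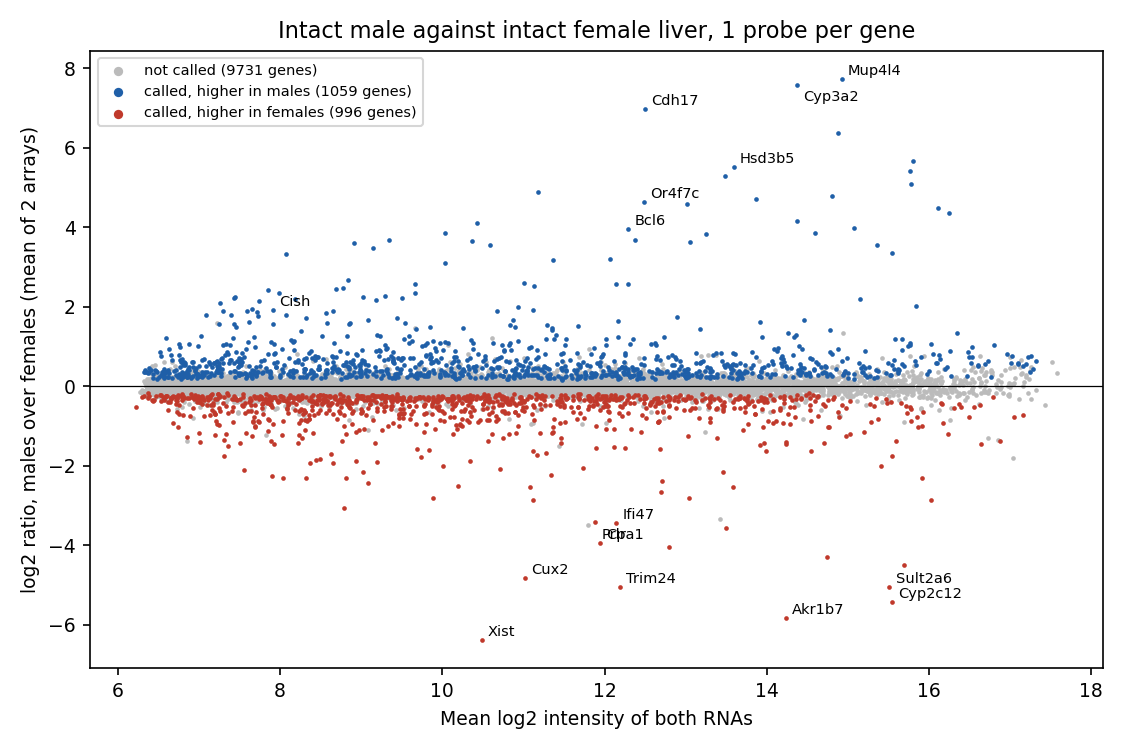
Log2 ratio of males to females (vertical axis, mean of 2 arrays) against the mean log2 intensity of both RNAs (horizontal axis), 1 point per named gene, coloured by call. The 1059 genes called higher in males and the 996 called higher in females lie at all brightnesses, and the labelled genes stand more than 1.5 log2 units from the line of no difference.

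Both arrays gave the same direction at 3948 of the 3983 called probes. The largest ratios were not equal on the arrays, however. The urinary lipocalin Mup4l4 had 9.19 on array 1 and 6.28 on array 2, and Cyp3a2 had 8.77 and 6.41, and the 15 male-higher genes with the largest ratios all had the larger value on array 1. Among the female-higher genes Sult2a1 had -3.72 and -5.29, larger in size on array 2. Dye, pools and slide all changed between the 2 arrays, so their parts in these gaps cannot be told apart. The model has 1 dye coefficient per probe for all 12 arrays, which takes only a dye difference common to them out of the spread. Of the 30 genes with the largest ratios, 29 were also called with either array left out, and the exception was the pancreatic enzyme Cpa1.

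**Figure D2:**
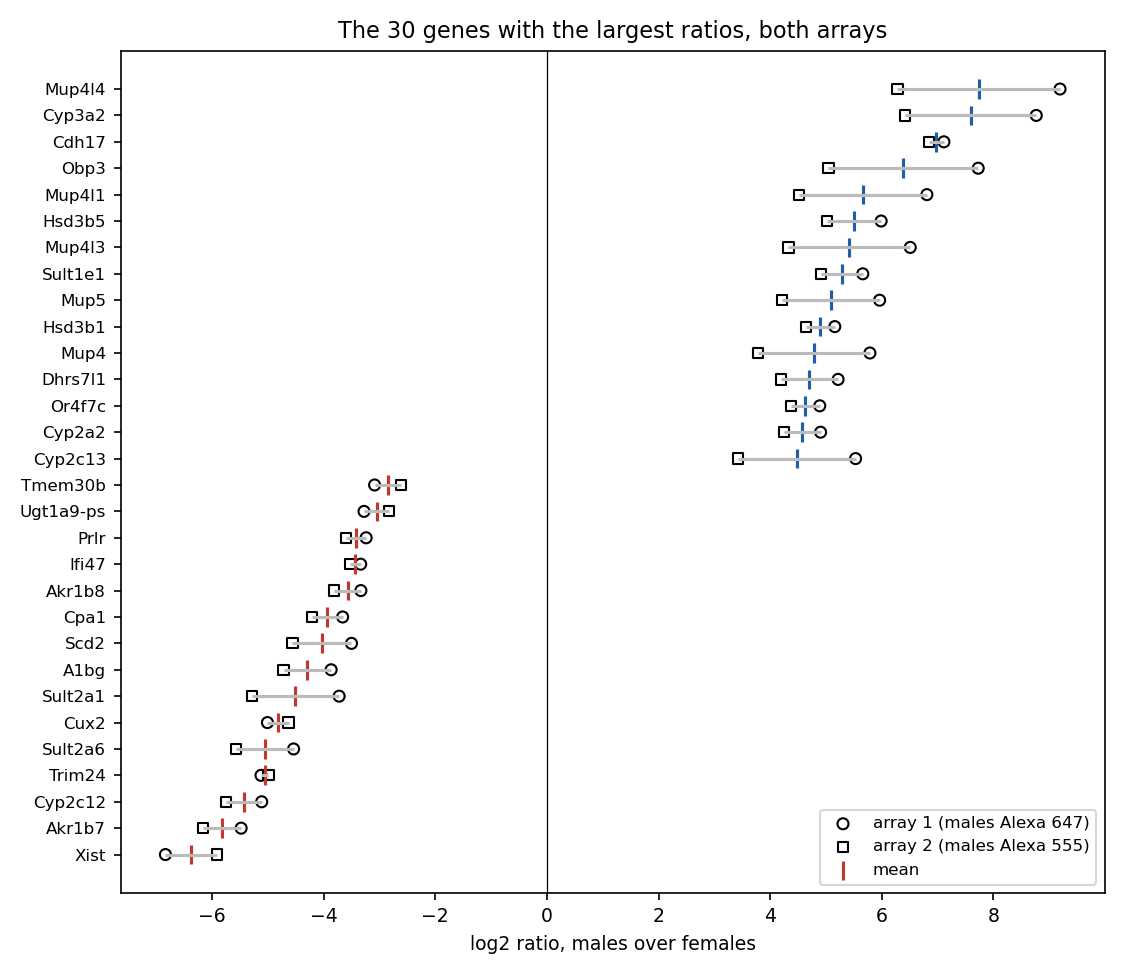
Log2 ratio of males to females (horizontal axis) on each array for the 15 genes with the largest called ratio in each direction, with circles for array 1, squares for array 2 and bars for the mean. All 30 genes lie on the same side of 0 on both arrays, and the circles stand to the right of the squares for the 15 male-higher genes.

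The urinary proteins had the highest median ratio of the lists and families used here. Most of them are lipocalins, small secreted proteins that carry pheromones, made in the liver of rats and excreted in the urine. All 9 tested members of the list were called higher in males, against 8.99% of all tested genes, with a median log2 ratio of 5.09 and a range from 0.63 to 7.74, beside a median of -0.0040 over all tested genes. Without array 1, 8 were called, and without array 2 all 9. Mup4l4 led the whole comparison at 7.74 ± 0.48 (adjusted p = 2.33e-05 by limma), a ratio of 213-fold. Its log2 intensity was 17.98 and 19.53 in the male RNAs and 8.78 and 13.25 in the female RNAs, so that the female values differed strongly between the arrays. Obp3 followed with ratios of 7.73 and 5.04 on the arrays (mean 6.39 ± 0.61). Mup4l1 had a mean of 5.66 ± 0.39, Mup4l3 5.42 ± 0.42, Mup5 5.09 ± 0.24 and Mup4 4.78 ± 0.49. These 6 lipocalin genes of chromosome 5 had a median of 5.54 and a range from 4.78 to 7.74. They are alike in sequence, and a probe of 1 of them may also read its neighbours. The lipocalin Obp1f of the X chromosome had 2.15 ± 0.12. The lowest pair of the list, Rup2 (0.64 ± 0.07) and Rup2l1 (0.63 ± 0.09) of chromosome 8, are not lipocalin genes, and Rup2 had 1.57 on array 1 and -0.29 on array 2.

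The promoters of several of these genes hold the same motifs. The 250 bases before the annotated start (RefSeq, build GRCr8) were searched on both strands for TTCNNNGAA, the core of STAT-bound elements and its own reverse complement, for ATCAAT and ATCGAT, letters found in the sites of the ONECUT and CUX factors, and for TATAAA, the TATA box. Mup4l4, Obp3, Mup4l1, Mup4l3, Mup5 and Mup4 all hold 1 ATCAAT and 1 TATAAA on the sense strand, the ATCAAT starting between 174 and 208 bases before the start. Mup4l1 also holds a TTCNNNGAA. Among all tested genes with a promoter in the table (9569 of 11786), ATCAAT was found in 4.02% and TATAAA in 7.96%. Shown here, in capitals where a motif matched, are the promoters of the leading gene, Mup4l4 (chr5:79707808-79708057, minus strand), and of Mup5 (chr5:79999696-79999945, minus strand), so that the shared letters can be seen.
Mup4l4: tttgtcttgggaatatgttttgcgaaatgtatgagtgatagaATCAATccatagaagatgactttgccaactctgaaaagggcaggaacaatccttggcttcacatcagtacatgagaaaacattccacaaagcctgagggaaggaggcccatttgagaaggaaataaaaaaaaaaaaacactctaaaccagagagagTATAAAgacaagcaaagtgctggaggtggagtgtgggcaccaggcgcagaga
Mup5: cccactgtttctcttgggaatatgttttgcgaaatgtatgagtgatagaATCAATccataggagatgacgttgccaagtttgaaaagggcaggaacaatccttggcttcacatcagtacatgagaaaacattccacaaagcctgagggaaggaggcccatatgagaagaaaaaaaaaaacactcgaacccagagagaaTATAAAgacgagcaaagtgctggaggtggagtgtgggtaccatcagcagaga

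Of all tested genes, 1.43% were called at least 2-fold higher in males and 1.09% at least 2-fold higher in females. Among the former 142 of 168 had a promoter in the table, and ATCAAT was found in 16 of them, ATCGAT in 1, TTCNNNGAA in 6 and TATAAA in 30. Among the latter 103 of 128 had one, with ATCAAT in 6, ATCGAT in 1, TTCNNNGAA in 5 and TATAAA in 17. The shares among all tested genes were 4.02%, 0.721%, 6.21% and 7.96% for these motifs in the same order, and 6.99%, 0.779%, 7.52% and 13.1% among all 27457 promoters of the table. The 6 lipocalin genes of chromosome 5 are among the 16 male-higher genes with ATCAAT. A match is a description of letters, and binding was not measured.

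Cytochromes P450 were called in both directions. Of the 57 tested, 16 were higher in males and 12 higher in females, 49.1% in all beside 17.4% of all genes. Without array 1 the counts were 8 and 11, and without array 2 they were 11 and 8. Highest in males was Cyp3a2, a testosterone 6-beta-hydroxylase, at 7.59 ± 0.20 (193-fold, adjusted p = 8.46e-07 by limma). Cyp2a2, another testosterone hydroxylase, had 4.90 and 4.25 on the arrays with a mean of 4.58 ± 0.12. Cyp2c13 had 4.48 ± 0.17, and Cyp2c11, the main male-specific steroid hydroxylase of adult rat liver, had 5.22 and 3.51 with a mean of 4.36 ± 0.57, and was not called without array 1. Highest in females was Cyp2c12, which hydroxylates steroid sulfates, at -5.11 and -5.76 (mean -5.43 ± 0.40, 43.2-fold). Its log2 intensity was 13.73 and 11.88 in males and 18.84 and 17.64 in females. The retinoic acid hydroxylase Cyp26a1 (-1.78 ± 0.15), Cyp3a9 (-2.01 ± 0.18) and the testosterone 7-alpha-hydroxylase Cyp2a1 (-1.62 ± 0.11) were also higher in females. Thus subfamilies split, with Cyp2c, Cyp2a and Cyp3a genes each called in both directions. Cyp2c7 was named after its values were seen, for the gap between its arrays: it had -0.80 and -2.79 and was not called (adjusted p = 0.25 by limma).

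**Figure D3:**
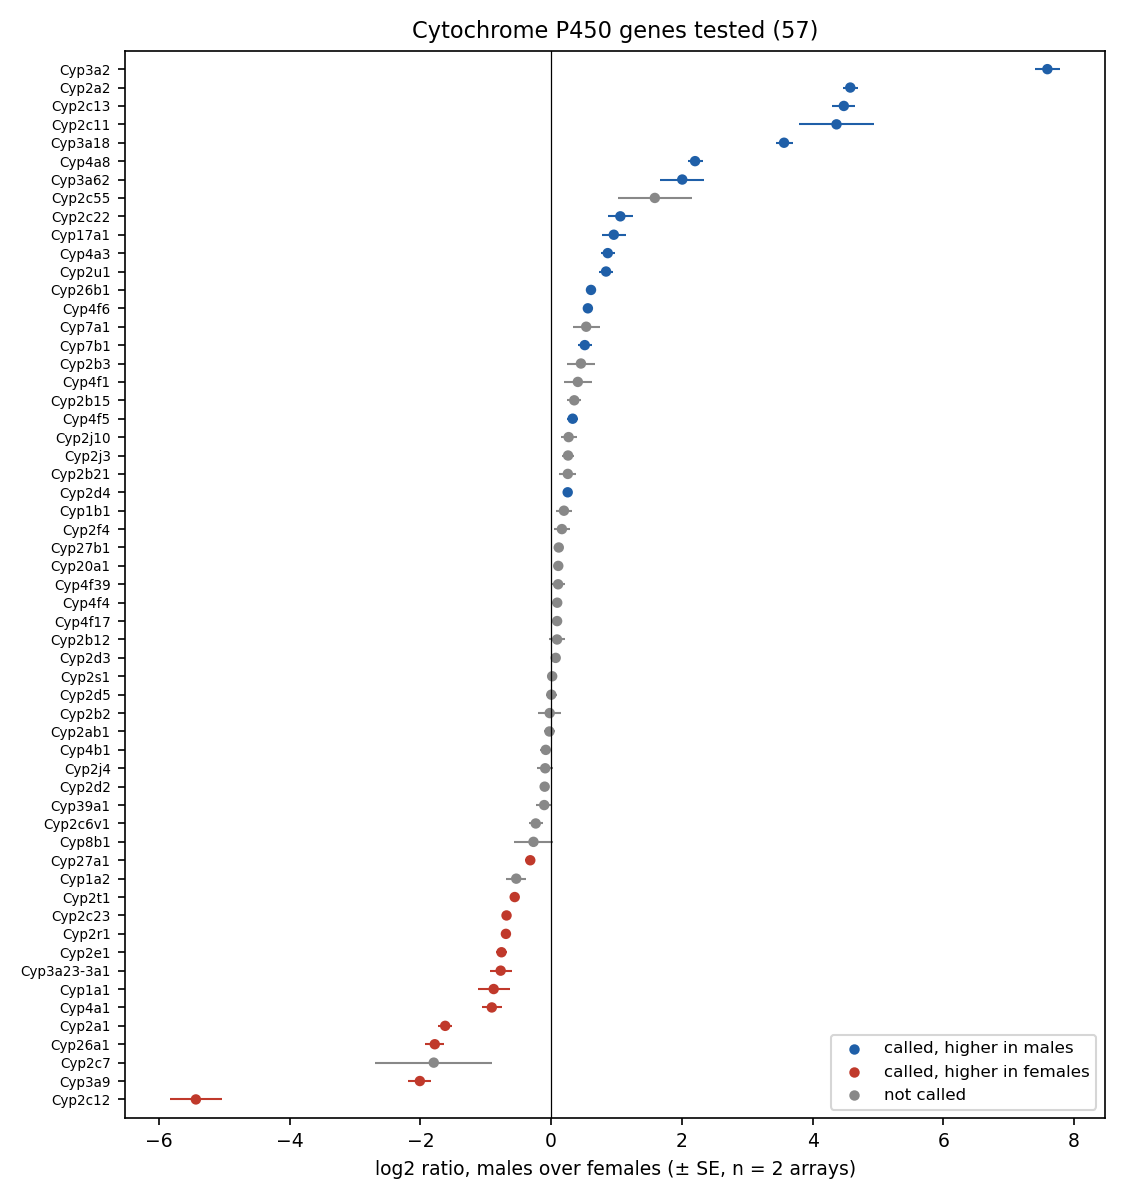
Log2 ratio of males to females with its SE (horizontal axis, n = 2 arrays) for each of the 57 tested cytochrome P450 genes, ordered by ratio and coloured by call. Cyp3a2 lies at 7.59 and Cyp2c12 at -5.43, and the 29 genes that were not called include Cyp2c7 at -1.80 with the widest error bar.

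The promoters of the most female-biased Cyp2c gene and of Cyp2c11 are shown for these letters. Cyp2c12 (chr1:248677035-248677284, minus strand) holds ATCAAT on the sense strand 243 bases before the start and on the other strand, read as ATTGAT, 71 bases before it. Cyp2c11 (chr1:246174966-246175215, plus strand) holds a TATAAA and neither ATCAAT nor ATCGAT in the window. Cyp2c13, whose ratio of 4.48 ± 0.17 lay close to the 4.36 ± 0.57 of Cyp2c11, holds an ATTGAT 60 bases before its start and a TATAAA. Cyp2c12 holds these letters too. Which copy a Cyp2c probe reads was not tested.
Cyp2c12: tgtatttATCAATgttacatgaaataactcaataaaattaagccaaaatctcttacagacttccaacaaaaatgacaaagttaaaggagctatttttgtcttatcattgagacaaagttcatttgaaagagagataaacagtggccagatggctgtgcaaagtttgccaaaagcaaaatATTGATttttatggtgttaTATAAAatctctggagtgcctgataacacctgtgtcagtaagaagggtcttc
Cyp2c11: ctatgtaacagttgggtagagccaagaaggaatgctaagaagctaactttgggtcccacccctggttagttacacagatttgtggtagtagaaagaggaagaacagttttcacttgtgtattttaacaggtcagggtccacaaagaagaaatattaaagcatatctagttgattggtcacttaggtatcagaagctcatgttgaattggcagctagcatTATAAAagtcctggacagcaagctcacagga

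Enzymes that act on steroid hormones were among the largest differences. The 3-beta-hydroxysteroid dehydrogenases, which in liver inactivate or interconvert steroids, were higher in males: Hsd3b5 had 5.99 and 5.02 on the arrays (mean 5.51 ± 0.20, 45.4-fold), Hsd3b1 4.90 ± 0.19 and Hsd3b2 3.67 ± 0.19. Hsd11b1, which regenerates active glucocorticoid, had 3.60 and 3.09 (mean 3.35 ± 0.09). In all, 6 of 16 hydroxysteroid dehydrogenases were called higher in males and 1 higher in females, beside 8.99% and 8.45% of all genes. The female-higher one was Hsd11b2 (-1.18 ± 0.33), which inactivates glucocorticoid and was not called when array 1 or array 2 was left out. Which copy a probe of the Hsd3b genes reads was not tested. The short-chain dehydrogenase Dhrs7l1 had 5.22 and 4.19 (mean 4.70 ± 0.30).

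Sulfotransferases split by subfamily, with 58.3% called in all beside 17.4% of all genes. Higher in males were 4 of the 12 tested, led by the estrogen sulfotransferase Sult1e1 at 5.66 and 4.92 (mean 5.29 ± 0.32) and by Sult1c3 (2.02 ± 0.24). Sult1c2al1 (1.18 ± 0.13) and Sult1c2a (0.33 ± 0.08) completed them. The 3 genes called higher in females were all hydroxysteroid sulfotransferases of the Sult2a group, Sult2a6 at -4.54 and -5.56 (mean -5.05 ± 0.23), Sult2a1 at -4.51 ± 0.36 and Sult2a2 at -2.85 ± 0.23. The 2 probes of Sult2a1 disagreed in size, at -4.51 and -0.27, and the 3 of Sult2a2 lay between -4.76 and -2.85. The sequences of this group are alike, and which copy a probe reads was not tested.

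The aldo-keto reductases, which reduce steroids, aldehydes and bile acid precursors, also held both directions. Of 17, 5 were called higher in males and 6 higher in females (4 and 5 without array 1, 3 and 4 without array 2). That is 64.7% in all, beside 17.4% of all genes. Akr1b7 was the most female-biased autosomal gene, at -5.48 and -6.17 (mean -5.82 ± 0.40, 56.6-fold), and Akr1b8 had -3.57 ± 0.23. Akr1b10 was well above background in the female RNA of both arrays and in the male RNA of neither, which makes it at least 2.24-fold higher in females, the dim side being set at the higher of its own signal and the lowest signal of any probe well above background. Highest in males was Akr1c3 at 3.51 and 3.44 (mean 3.47 ± 0.10). Its relatives Akr1c12 (1.08 ± 0.15), Akr1c12l1 (0.86 ± 0.09) and the bile acid enzyme Akr1d1 (0.72 ± 0.12) followed.

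Other families of detoxification were called in both directions, with fewer calls when an array was left out. Called in all were 44.4% of the glutathione S-transferases, 66.7% of the UDP-glucuronosyltransferases and 66.7% of the carboxylesterases, beside 17.4% of all genes. Of 18 glutathione S-transferases, 5 were called higher in males, led by Gstm3 (2.25 ± 0.15) and Gstm1 (1.18 ± 0.11) of the mu class. The 3 called higher in females were all of the alpha class, led by Gsta3 (-1.43 ± 0.20) and Gsta1 (-1.38 ± 0.27). Another gene of the alpha class had 2 probes, at 0.35 and 1.31, of which 1 was called, higher in males. The counts were 4 and 1 without array 1 and 3 and 0 without array 2. UDP-glucuronosyltransferases were called 4 in each direction of 12, none beyond 1.15 in size, with Ugt2b10 (-1.15 ± 0.13) and Ugt2b (0.78 ± 0.14) at the ends, with 1 male-higher and 2 female-higher calls without array 1 and 2 of each without array 2. The probe of the pseudogene Ugt1a9-ps, which is not in that family list, had -3.28 and -2.82 (mean -3.05 ± 0.26). Carboxylesterases were called higher in males for 4 of 9 (Ces1d 1.34 ± 0.11) (1 without array 1, 2 without array 2) and in females for 2 (Ces2a -1.44 ± 0.16, Ces2c -0.88 ± 0.10). The flavin monooxygenase Fmo5 had -1.56 and -1.58 (mean -1.57 ± 0.06), while Fmo1 was higher in males (0.51 ± 0.09). The aldehyde dehydrogenase Aldh1a1, which makes retinoic acid, was higher in females (-1.14 ± 0.17).

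Transporters of organic ions were called higher in males for 7 of 25 and in females for 3, beside 8.99% and 8.45% of all genes. The counts were 7 and 1 when array 1 or array 2 was left out. Ust5r, an organic anion transporter-like protein, had 4.19 and 3.45 (mean 3.82 ± 0.10), the organic anion transporter Slc22a8 3.65 ± 0.14 and Slc22a25 3.33 ± 0.19. The carnitine transporter Slc22a5 had -0.74 ± 0.12 and Slc22a24 -0.90 ± 0.10. Of the 41 ABC transporters 5 were higher in males and 6 in females (2 and 3 when array 1 or array 2 was left out). That is 26.8% in all, beside 17.4% of all genes. The very long chain fatty acid transporter Abcd2 of the peroxisome had -2.29 and -2.30 (mean -2.30 ± 0.06), the basolateral bile conjugate exporter Abcc3 -1.71 ± 0.07 and the drug efflux pump Abcb1a -1.16 ± 0.14. Tmem30b, a subunit of lipid flippases, had -3.09 and -2.61 (mean -2.85 ± 0.07), and its other probe read -0.70.

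Few components of GH signalling itself were called. Of 17 tested genes of the pathway 1 was called (5.88%, beside 17.4% of all genes): Cish, an inhibitor of cytokine receptors that STAT5 is known to induce, at 2.03 and 1.79 (mean 1.91 ± 0.08, 3.77-fold, adjusted p = 2.84e-06 by limma). Its log2 intensity was 9.09 and 8.76 in males and 7.05 and 6.97 in females. Not called were the receptor Ghr (0.07), its kinase Jak2 (-0.18), Stat5a (0.20), Stat5b (0.26) and the inhibitor Socs2 (-0.10), which are named for their roles after their values were seen, and Ghr and Stat5a turned negative with median centring. In the IGF axis, 1 of 12 genes was called higher in males, Igfbp4 (0.38 ± 0.09), and 2 in females, the binding proteins Igfbp1 (-1.56 ± 0.20) and Igfbp2 (-1.45 ± 0.27). Without array 1 none of the 3 was called by limma, and without array 2 only Igfbp1 was. The growth factor Igf1 itself, also named after its values were seen, had 1.63 on array 1 and -0.70 on array 2 and was not called. Cish is shown (chr8:116850719-116850968, plus strand) because its window holds 4 matches to TTCNNNGAA, starting 241, 230, 136 and 119 bases before the start, with the letters TTCCTGGAA, TTCTTGGAA, TTCTAGGAA and TTCCGGGAA.
Cish: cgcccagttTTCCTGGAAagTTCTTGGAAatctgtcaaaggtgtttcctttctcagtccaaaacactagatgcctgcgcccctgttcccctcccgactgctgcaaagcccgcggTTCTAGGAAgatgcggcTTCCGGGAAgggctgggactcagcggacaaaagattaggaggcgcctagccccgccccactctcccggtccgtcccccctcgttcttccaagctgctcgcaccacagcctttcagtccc

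Among 20 liver transcription factors 3 were called higher in each sex, 30% in all beside 17.4% of all genes. The male-higher count was 1 when array 1 or array 2 was left out, and the female-higher count was 3 without array 1 and 2 without array 2. Bcl6, a repressor whose sites overlap with those of STAT5, was higher in males at 3.69 and 4.21 (mean 3.95 ± 0.24, 15.4-fold), and its other probe read 2.22. Cux2, a homeodomain factor known for female rodent liver, had -5.01 and -4.63 (mean -4.82 ± 0.13, 28.2-fold), with its other probe at -0.62 and called in the same direction. Onecut1, also called HNF6, had -2.39 and -2.93 (mean -2.66 ± 0.28), and the pioneer factor Foxa2 -0.63 ± 0.10. The corepressor Trim24, which is not in that list, had -5.12 and -4.99 (mean -5.06 ± 0.11, 33.3-fold), the closest agreement between arrays among the female-higher genes past 5 log2 units. The window before Cux2 (chr12:40179032-40179281, plus strand) holds an ATCGAT 45 bases before the start, which 0.721% of the promoters of tested genes hold. That of A1bg (chr7:94387497-94387746, minus strand), a plasma glycoprotein gene at -3.87 and -4.72 (mean -4.29 ± 0.33), holds a TTCNNNGAA and an ATTGAT.
Cux2: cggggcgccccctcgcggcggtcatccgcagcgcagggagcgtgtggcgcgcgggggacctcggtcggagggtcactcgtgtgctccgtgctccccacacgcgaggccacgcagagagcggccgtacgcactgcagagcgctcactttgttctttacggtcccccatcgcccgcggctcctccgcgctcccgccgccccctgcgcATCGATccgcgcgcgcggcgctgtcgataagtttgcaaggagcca
A1bg: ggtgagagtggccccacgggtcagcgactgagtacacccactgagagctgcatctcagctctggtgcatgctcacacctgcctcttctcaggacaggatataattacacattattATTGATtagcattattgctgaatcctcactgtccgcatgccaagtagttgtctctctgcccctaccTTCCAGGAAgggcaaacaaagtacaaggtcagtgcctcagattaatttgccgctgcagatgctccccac

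Receptors leaned to females, with 8 of 20 pituitary hormone, sex steroid, leptin and growth factor receptors called higher in females and 2 in males, beside 8.45% and 8.99% of all genes. Without array 1 the female-higher count was 2, and without array 2 it was 3. The prolactin receptor Prlr had -3.24 and -3.60 (mean -3.42 ± 0.19, 10.7-fold), the leukaemia inhibitory factor receptor Lifr -2.14 and -2.47 (mean -2.31 ± 0.08), and the leptin receptor Lepr -1.12 and -0.40 (mean -0.76 ± 0.16). The hepatocyte growth factor receptor Met had -0.45 ± 0.11. Higher in males was the epidermal growth factor receptor Egfr (0.81 ± 0.07). Of 29 nuclear receptors 4 were called higher in males and 3 in females, with 2 and 0 called without array 1 and 3 and 0 without array 2. The constitutive androstane receptor Nr1i3, which induces drug-metabolising P450s, had 0.72 ± 0.10 and Pparg 0.81 ± 0.10, while Rxrg had -0.78 ± 0.17.

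**Figure D4:**
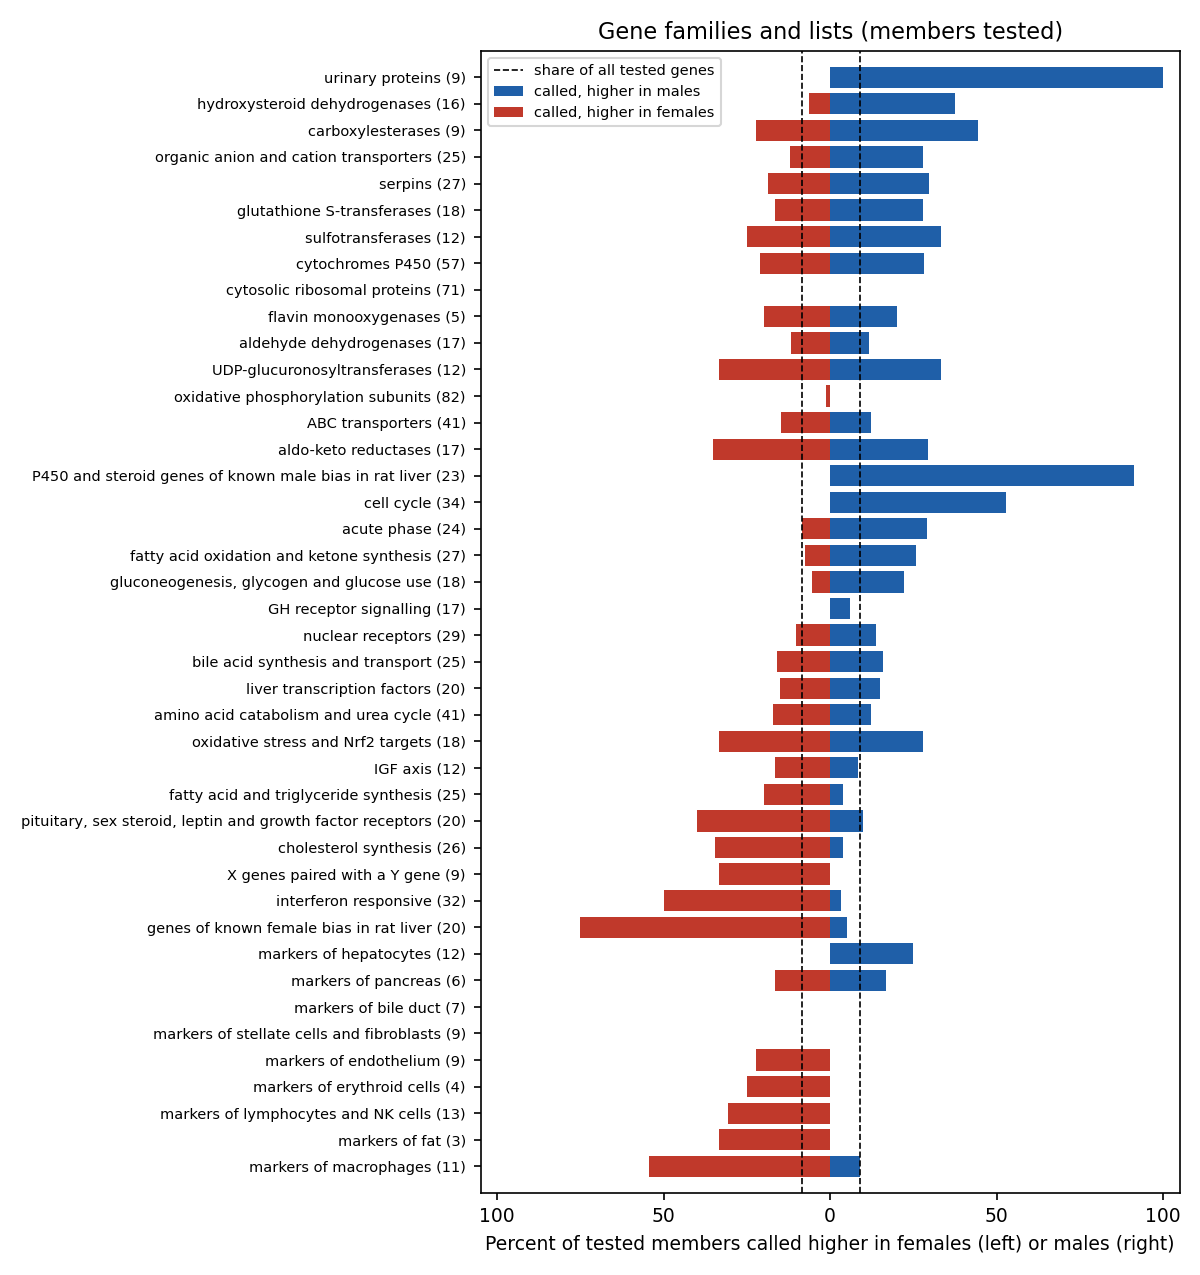
Percent of the tested members of each gene family or list (number tested in parentheses) called higher in males (right) or higher in females (left), with dashed lines at the shares of all tested genes, 8.99% and 8.45%. Families are at the top, other lists in the middle and cell type markers at the bottom, and the urinary proteins reach 100% on the male side.

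Lipid genes differed by smaller steps. The shares to set beside their counts are 8.99% of all genes called higher in males and 8.45% called higher in females. In cholesterol synthesis 9 of 26 genes were called higher in females and 1 in males, with a list median of -0.35, and 2 were called higher in females and 0 in males when array 1 or array 2 was left out. The sterol reductase Tm7sf2 had -1.38 ± 0.15, Sc5d -0.66 ± 0.05, squalene epoxidase Sqle -0.61 ± 0.15 and Mvd -0.58 ± 0.12, while Insig2, which holds back sterol synthesis, was higher in males (0.94 ± 0.24). Of 25 genes of fatty acid and triglyceride synthesis 5 were higher in females and 1 in males (3 and 0 without array 1, 4 and 0 without array 2). The desaturase Scd2 led with -3.50 and -4.56 (mean -4.03 ± 0.26), although its 3 probes ranged from -4.03 to -0.64. The fatty acid uptake protein Cd36 had -2.84 and -2.78 (mean -2.81 ± 0.12), and the acyltransferase Gpam -0.84 ± 0.09. Elovl6, a fatty acid elongase named after its values were seen, had -3.69 and -3.00 but an adjusted p of 0.0542 by limma and was not called with this probe. In fatty acid oxidation and ketone synthesis 7 of 27 genes were higher in males (2 without array 1, 1 without array 2) and 2 in females (1 when array 1 or array 2 was left out), with Bdh1, an enzyme of ketone bodies, at 0.59 ± 0.11 and Pdk4 at -0.85 ± 0.10.

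Glucose and amino acid genes held a few large differences, with fewer calls when an array was left out. In all 27.8% of the glucose, 29.3% of the amino acid and 32% of the bile acid genes were called, beside 17.4% of all genes. Among 18 genes of gluconeogenesis and glucose use 4 were higher in males (0 when array 1 or array 2 was left out), including Pck1, the entry enzyme of gluconeogenesis, at 1.72 and 1.62 (mean 1.67 ± 0.25), and G6pc1 (1.02 ± 0.19), the glucose-6-phosphatase. Ppargc1a was higher in females (-0.45 ± 0.08), again not when array 1 or array 2 was left out. Of 41 genes of amino acid breakdown and the urea cycle 5 were higher in males and 7 in females (3 and 3 without array 1, 1 and 3 without array 2). The taurine-forming decarboxylase Csad had 2.79 and 3.60 (mean 3.19 ± 0.41), and the histidine-degrading Hal -0.88 ± 0.09. Bile acid genes were called 4 in each direction of 25 (2 without array 2), with the conjugating enzyme Baat at 0.99 ± 0.09. Cyp7a1, the entry enzyme of bile acid synthesis, was named after its value was seen and was not called at 0.54.

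Of 34 genes of the cell cycle list 18 were called higher in males and 0 higher in females, beside 8.99% and 8.45% of all genes, with a list median of 0.46. Leaving out array 1 or array 2 gave 13 calls each time, and median centring gave 1. The ribonucleotide reductase subunit Rrm2 had 1.69 and 1.72 (mean 1.71 ± 0.16), the mitotic kinase Cdk1 1.24 and 1.08 (mean 1.16 ± 0.11), Ube2c 1.13 ± 0.08 and Cdkn3 1.11 ± 0.06. In RNA of whole liver, more cells of a kind and more RNA per cell cannot be told apart.

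Interferon responsive genes leaned to females, where 8.45% of all genes were called higher in females and 8.99% in males. Of 32 in the list 16 were called higher in females and 1, Stat2 (0.22 ± 0.06), in males. Most of the ratios were small, the list median being -0.31, and the female-higher count was 6 without array 1 and 2 without array 2. Stat2 was not called when array 1 or array 2 was left out. The immunity-related GTPase Ifi47 stood apart at -3.34 and -3.53 (mean -3.43 ± 0.06, 10.8-fold), followed by Irgm (-0.95 ± 0.18), Bst2 (-0.86 ± 0.13) and the chemokine Cxcl11 (-0.69 ± 0.06). Markers of immune cells also leaned to females. Called higher in females were 6 of 11 macrophage markers and 4 of 13 lymphocyte and NK cell markers, by at most 0.46 in size. These counts were 1 and 0 without array 1, and 0 and 0 without array 2. Higher in males was 1 macrophage marker, Lyz2 (0.84 ± 0.09). The Kupffer cell lectin Clec4f had -0.37 ± 0.06 and Adgre1 -0.32 ± 0.05, the NK receptor Klrd1 -0.46 ± 0.08 and Cd3g -0.41 ± 0.08. In hypophysectomised rats the list medians were -0.28 for macrophage markers, -0.13 for lymphocyte and NK cell markers and -0.14 for interferon responsive genes. In intact rats they were -0.28, -0.24 and -0.31. The part of these cells in the interferon values was not tested. Ifi47 (chr10:33798494-33798743, plus strand) is shown because it differs so far from the rest of its list and because its window holds 2 matches to TTCNNNGAA, which 6.21% of the promoters of tested genes hold at least 1 time.
Ifi47: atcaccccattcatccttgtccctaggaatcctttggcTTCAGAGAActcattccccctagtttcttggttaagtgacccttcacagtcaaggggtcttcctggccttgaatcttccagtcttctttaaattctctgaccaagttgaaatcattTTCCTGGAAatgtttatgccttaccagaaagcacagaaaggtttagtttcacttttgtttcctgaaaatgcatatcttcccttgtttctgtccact

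Most markers of other cells were not called. Of all genes 17.4% were called, beside 22.2% of the endothelial markers, 25% of the hepatocyte markers and 37.5% of the acute phase list. None of the 9 stellate cell and fibroblast markers and none of the 7 bile duct markers was called by limma, with ranges from -0.50 to 0.30 and from -0.21 to 0.07, and 2 of 9 endothelial markers were, Kdr (-0.22 ± 0.05) and Tek (-0.26 ± 0.06), neither of them when array 1 or array 2 was left out. Of 3 fat markers, Cfd was called (-0.43 ± 0.12) but not when array 1 or array 2 was left out, while Adipoq had -2.40 on array 1 and -0.34 on array 2 and was not called. The pancreatic carboxypeptidase Cpa1 was far higher in females, at -3.66 and -4.21 (mean -3.93 ± 0.80, adjusted p = 0.013 by limma), and was not called when array 1 or array 2 was left out. Beside it the pancreatic genes Cpb1 (-0.29), Ctrb1 (-0.08), Cela2a (0.03) and Ins2 (0.08) were not called, and Cela1, an elastase, was higher in males (1.74 ± 0.20). All 12 hepatocyte markers were tested, and 3 were called, higher in males. They were Serpina1 (1.69 and -0.07), Rbp4 (1.55 and -0.43) and Fgb (1.53 and -0.63), each of opposite sign on the arrays, and 21 called genes in all had that property. Without array 1 none of the 3 was called by limma, and without array 2 all 3 were. The acute phase list, with 7 of 24 members higher in males and 2 in females, holds several of these secreted proteins: Hp had 1.70 on array 1 and -0.16 on array 2, and its call rests on the dye coefficient. Without array 1 the list's male-higher count was 4, without array 2 it was 3, and the female-higher count was 0 each time.

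Genes of the basic machinery were rarely called, where 17.4% of all genes were. None of the 71 cytosolic ribosomal protein genes was called by limma, their ratios lying between -0.28 and 0.23, and of 82 oxidative phosphorylation subunits 1 was called, Cox4i2 (-0.70 ± 0.05), an isoform of cytochrome c oxidase used under low oxygen.

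The sex chromosomes check the labels. Xist, the RNA that silences 1 X chromosome in females, had -6.84 and -5.91 (mean -6.37 ± 0.20), with a log2 intensity of 7.3 in both male RNAs. Of 9 tested X genes with a partner on the Y chromosome 3 were called, all higher in females, Eif2s3 (-0.73 ± 0.05), Ddx3x (-0.41 ± 0.08) and Eif1ax (-0.29 ± 0.06). The count was 2 without array 1, 1 without array 2 and 0 with median centring. The 6 others lay between -0.19 and 0.04. Of all 389 tested X genes, these included, 18.5% were called, beside 17.4% of 11396 autosomal genes. No probe was named for a Y gene of the list used, and the naming did not accept synonyms of Y genes.

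Fewer probes were called between the sexes after removal of the pituitary, and most genes past 2-fold in intact rats had a called difference between the conditions. Between hypophysectomised males and females 247 of 26038 probes were called (0.949%), or 121 of 11832 genes (1.02%). The intact and the hypophysectomised comparison share no RNA, and their difference was tested directly in the same fit: 1251 of 24923 probes differed (5.02%), with the intact log2 ratio above the other at 723 (2.9%) and below it at 528 (2.12%). The count was 426 without array 1 of the intact comparison, 539 without its array 2, and 8 with median centring. In genes it was 673 of 11474 (5.87%), 393 of them above (3.43%) and 280 below (2.44%). Of 161 genes at least 2-fold higher in intact males that were also tested there, 122 had a called difference between the conditions, and the median ratio was 1.57 in intact and 0.37 in hypophysectomised rats. Of 118 genes at least 2-fold higher in intact females 93 had a called difference, with medians of -1.44 and -0.24. Among the genes called below 2-fold, most had no called difference: 252 of 846 male-higher genes had one, with median ratios of 0.41 and 0.05, and 173 of 855 female-higher genes, with medians of -0.36 and -0.10. All these genes were chosen for their intact ratio, so a smaller ratio elsewhere is partly built in.

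The largest of these differences were in genes already named. Cyp3a2 had 7.59 in intact and 0.15 ± 0.20 in hypophysectomised rats (difference 7.44 ± 0.28). For Mup4l4 the values were 7.74 and 2.13 (difference 5.60 ± 0.67), for Obp3 6.39 and 0.99 (5.40 ± 0.86), for Mup4 4.78 and 0.75 (4.03 ± 0.70) and for Cyp2c13 4.48 and 0.53 (3.95 ± 0.25). The probe named for the olfactory receptor Or4f7c had 4.89 and 4.37 on the intact arrays (mean 4.63 ± 0.11) and 0.04 in hypophysectomised rats (difference 4.60 ± 0.15). On the female side Akr1b7 had -5.82 and -0.42 (difference -5.40 ± 0.57), Cyp2c12 -5.43 and -0.66 (-4.77 ± 0.56), Trim24 -5.06 and -0.45 (-4.61 ± 0.15), Scd2 -4.03 and -0.02 (-4.01 ± 0.37), Sult2a6 -5.05 and -1.31 (-3.75 ± 0.32) and Akr1b8 -3.57 and -0.17 (-3.40 ± 0.33). Called differences were also found at some regulators and receptors. Bcl6 had 3.95 and 0.34 (3.61 ± 0.35), Cux2 -4.82 and -1.65 (-3.17 ± 0.18) and Cish 1.91 and 0.06 (1.85 ± 0.12). Prlr had -3.42 and -1.28 (-2.15 ± 0.27) and Lifr -2.31 and -0.03 (-2.27 ± 0.12). By list, 4 of 20 liver transcription factors, 4 of 20 hormone and growth factor receptors and 0 of 27 nuclear receptors had a called difference, beside 5.87% of all genes. Lepr, with -0.76 in intact and -1.31 in hypophysectomised rats, had none. In the cell cycle list 14 of 33 genes had a called difference, and Rrm2 went from 1.71 to -0.10 (1.81 ± 0.23).

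**Figure D5:**
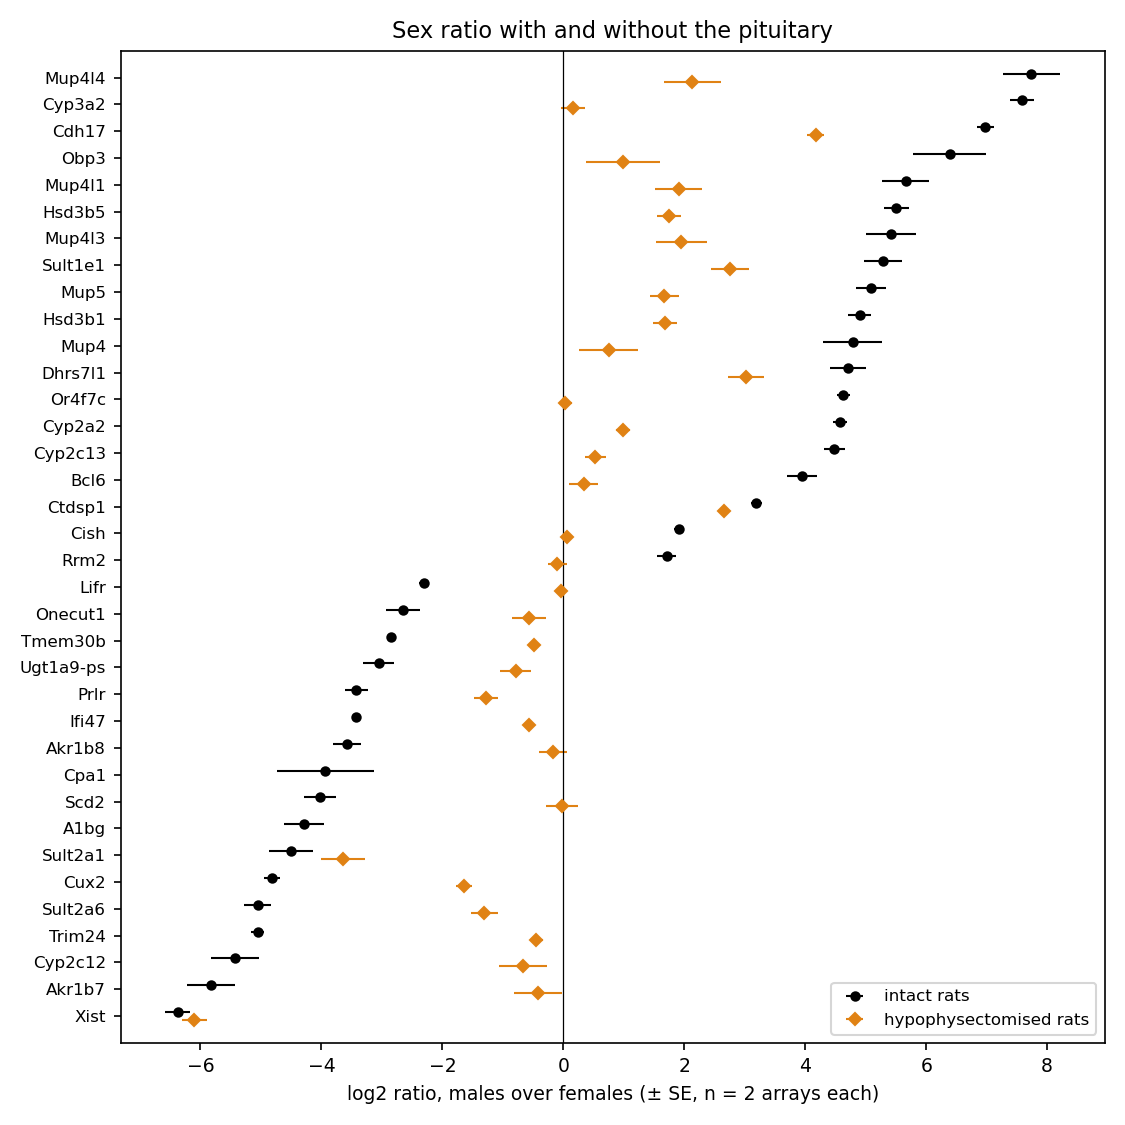
Log2 ratio of males to females with its SE (horizontal axis, n = 2 arrays per condition) in intact rats (black circles) and in hypophysectomised rats (orange diamonds) for the genes with the largest ratios and for named regulators and receptors; a diamond is left out where the probe was not tested in hypophysectomised rats. Most diamonds lie nearer to 0 than the circles, and those of Xist and Ctdsp1 lie close to them.

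Among the genes with large intact ratios, some had no called difference between the conditions. Xist had -6.11 ± 0.20 without the pituitary, and the difference from the intact value was not called (-0.27 ± 0.29). Ctdsp1, a phosphatase of RNA polymerase II, had 3.19 in intact and 2.65 ± 0.09 in hypophysectomised rats, and Sult2a1 -4.51 and -3.65 ± 0.36, neither with a called difference (adjusted p = 0.053 for Ctdsp1 and 0.466 for Sult2a1 by limma). Ctdsp1 has another probe, which read -0.22 in intact rats. Dhrs7l1 had 4.70 and 3.02 ± 0.30 (adjusted p of the difference 0.0656 by limma). The steroid hydroxylase Cyp2c11 had 4.36 and 2.40 ± 0.57, again with no called difference (adjusted p = 0.258 by limma). Cdh17, the liver-intestine cadherin, kept 4.17 ± 0.14 of its 6.98 ± 0.14, the difference of 2.81 ± 0.20 being called. Sult1e1 had 5.29 and 2.76 ± 0.32, also with a called difference (2.53 ± 0.45). By count, 27 of the 161 male-higher and 19 of the 118 female-higher genes past 2-fold were called in the same direction in hypophysectomised rats, and 0 in the opposite direction. Of the genes below 2-fold, 12 male-higher and 39 female-higher genes were called in the same direction there, and 3 male-higher genes in the opposite one.

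The arrays of each sex show on which side the values moved. They share their intact RNA groups with the sex comparison, so they are set beside it as values and not as independent support. Hypophysectomy changed 40.6% of the genes tested in males and 38.9% in females. Some male-higher genes rose in females without a called change in males: the log2 ratio of hypophysectomised to intact females was 7.44 ± 0.20 for Cyp3a2, 4.27 ± 0.17 for Cyp2c13, 4.32 ± 0.12 for Cyp2a2, 4.98 ± 0.20 for Hsd3b5, 4.73 ± 0.32 for Sult1e1 and 3.20 ± 0.24 for Bcl6, beside -0.15, 0.44, 0.14, -0.46, 0.16 and -0.57 in males. Others fell in males: Or4f7c fell by 4.71 and Cish by 2.08 on the log2 scale with no called change in females, and Cdh17 fell by 4.05 in males and by 0.60 in females. Mup4l4 fell in both sexes, with -7.74 in males and -4.38 in females. Among female-higher genes, Cyp2c12 fell by 6.23 in females and 1.30 in males, and in females the log2 ratio was -6.27 for Akr1b7, -4.31 for Trim24 and -2.90 for Ifi47. Sult2a6, Prlr and Cd36 rose in males, by 2.89, 2.10 and 1.44, and fell in females, by 1.33, 1.95 and 0.80.

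The sex ratio can also be reached without the direct arrays, from intact males through hypophysectomised males and females to intact females. The RNA groups at the ends are the same as in the direct comparison. Direct and indirect values differed significantly at 0 of 23859 probes by limma, with 114 at an unadjusted p under 0.05. That is a smaller share than independent errors would give. Same-numbered arrays of this loop share a slide and may share pools, so small differences may be partly built in, which was not tested. For Cyp3a2 the indirect value was 7.74 beside 7.59, for Cyp2c12 -5.59 beside -5.43, for Trim24 -5.20 beside -5.06 and for Bcl6 4.10 beside 3.95. Some of the strongest genes lay further apart, with Cyp2c11 at 7.84 ± 0.99 beside 4.36 ± 0.57, Mup4l4 at 5.49 ± 0.82 beside 7.74 ± 0.48 and Prlr at -5.33 beside -3.42.

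Genes read in a single sex were few and dim. Of the 25714 tested probes, 78 were well above background in the male RNA of both arrays and the female RNA of neither, and 414 were of the opposite kind. These probes passed the filter through 1 sex alone, and the reason for the uneven counts was not tested. The largest lower bounds among named genes were at least 3.50-fold higher in males for the neural adhesion molecule Ncam2, whose other probe read 0.15, and at least 3.36-fold higher in females for Scube1, a secreted protein, with Ky at least 2.64-fold and Plppr4 at least 2.39-fold. All 30 genes with the largest ratios were well above background in both sexes. Where a gene had 2 or more called probes, they went in 1 direction for 325 of 327 genes. The exceptions were Slc22a21 (-0.56 and 0.72) and Smurf1 (-0.29 and 0.73), and the median spread between the probes of a gene was 0.0756. The share of called probes rose with brightness, from 6.47% in the dimmest of 5 equal groups of probes to 20.6% in the brightest.

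Single calls among the named genes depended on the arrays as the counts did. Not called when array 1 or array 2 was left out were 29 of them: Adgre1, Bdh1, Cd3g, Cfd, Cpa1, Ddx3x, G6pc1, Gsta1, Hsd11b2, Igfbp2, Igfbp4, Insig2, Kdr, Klrd1, Lepr, Met, Mvd, Otos, Pck1, Ppargc1a, Rnase6, Rxrg, Slc22a21, Slc22a5, Sqle, Stat2, Sult1c2a, Tek and Ugt2b. Another 9 were not called without array 1 alone, namely Cyp2c11, Fgb, Igfbp1, Ky, Nr1i3, Rbp4, Rup2l1, Serpina1 and Smurf1. A further 9 were not called without array 2 alone, namely Akr1c12, Akr1d1, Bst2, Clec4f, Eif1ax, Fmo1, Foxa2, Gsta3 and Irgm.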

How the data were processed

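Pooled liver RNA was amplified, labelled with Alexa 555 or Alexa 647 and hybridised to Agilent arrays of design 014879, per the labels. Per the file headers, the deposited files give mean and background intensity for 45018 spots in each dye, read with Agilent Feature Extraction 9.1.3.1, with flags for spots well above background, saturated (0 spots) or outlying. The deposited value table holds, judged from its values, log2 ratios of the processed signals (channel 2 over channel 1), and served as an alternative.

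Intensities were corrected with normexp (offset 50), normalized by loess within arrays in limma 3.58.1 (R 4.3.3, with the data.table package, version 1.17.8), turned to male over female by the labelled dyes and averaged per probe. Neither control spots (1639) nor outlying spots weighed in the loess curve, and outlying spots were then left out, which leaves 12 tested probes with a value on 1 array. One linear model was fitted to all 12 arrays, over 29008 probes, with a coefficient for each of the 6 comparisons and a dye coefficient. It leaves 5 residual df, to which limma added 3.08 prior df (prior SD 0.101). The fit pools the spread of all comparisons, and both growth hormone comparisons used a single hormone-treated pool on their arrays. Benjamini-Hochberg adjustment ran over the tested probes of each comparison. On the arrays of intact rats 60.4% to 65.4% of probes passed the background flag in each dye. Levels were taken per dye after loess and quantile scaling of mean intensity (Aquantile), and lower bounds rest on them.

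Probes were named by accession (10719), symbol (5541), synonym (3720) or gene ID (1215) through a RefSeq table of build GRCr8. A further 3 were named by the symbol on the array and 1, Xist, by its description. Left unnamed were 19759 probes without a match and 54 whose match was a predicted symbol. The names can be older than the current annotation. Promoters came from the RefSeq table of that build. Named genes were the 15 called with the largest ratio each way and the same direction on both arrays, up to 4 called members each way per list or family (all members of lists of 8 or fewer), Xist and Y genes, genes well above background in 1 sex, the 6 each way with the largest called difference between intact and hypophysectomised rats, and genes whose probes disagree. The values of some genes are not reported here. The members, the gene lists and this rule were chosen with earlier results of these data known. The fit was tested on simulated data. Alternatives covered the background correction, the normalization, the filter, the dye, slide and replicate terms, the left-out arrays and the value table.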

Additional observations from a re-analysis of the deposited data

Results flagged for a closer look

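The sex ratio differed between intact and hypophysectomised rats, by a limma contrast over 2 arrays each, at 79 of the 141 genes named above that could be tested for it. Over all genes tested for it the share was 5.87%. Many genes were named for a large intact ratio or for this difference itself, so a higher share among them is built in. Values are given for the 20 whose difference the report prints, as the intact log2 ratio of males to females minus that of hypophysectomised rats. Among male-higher genes they were 7.44 for Cyp3a2, 5.60 for Mup4l4, 5.40 for Obp3, 4.60 for Or4f7c, 4.03 for Mup4, 3.95 for Cyp2c13, 3.61 for Bcl6, 2.81 for Cdh17, 2.53 for Sult1e1, 1.85 for Cish and 1.81 for Rrm2. Among female-higher genes they were -5.40 for Akr1b7, -4.77 for Cyp2c12, -4.61 for Trim24, -4.01 for Scd2, -3.75 for Sult2a6, -3.40 for Akr1b8, -3.17 for Cux2, -2.27 for Lifr and -2.15 for Prlr.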

How the results depend on the processing

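Of the 3 counts, 3983 probes called, 544 called at least 2-fold and 1251 called for the difference between intact and hypophysectomised rats, each stayed within 1.5 times its value with normexp offset 0, without the filter, with both RNAs well above background, with slide as a random block, and with trended robust variances, and the first 2 with the arrays fitted alone. With the replicate number as a block the counts were 3557, 535 and 1043. Outside the growth hormone comparisons, same-numbered arrays also share a slide. The residuals of same-numbered arrays correlated with those of the intact comparison at -0.466, -0.461, 0.349, 0.384 and 0.411. Their signs depend on the dye layout and on which RNA is the numerator, so they cannot decide whether the number marks a pairing. The number was not a term of the main fit, and sharing of pools between comparisons was not tested. With median centring in place of loess the counts were 261, 244 and 8, and the median of all tested probes moved from -0.0052 to -0.13. With the processed signals 980 probes passed 2-fold and 654 had a called difference, 956 passed 2-fold in the value table, and without a dye coefficient 2600 were called and 696 differed. The cause was not tested. Leaving out an array gave 1292 to 1448 called and 426 to 539 for the difference, with fewer arrays in the fit.

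Signs turned at genes with small ratios. With the processed signals Cela2a had -0.0896 and Ghr -0.015, and with the value table Cela2a had -0.02. With median centring Ghr had -0.173, Slc25a12 -0.011, Stat2 -0.0067 and Stat5a -0.0411. With the median over probes Slc22a21 had 0.0803 and Smurf1 0.216. Leaving out an array gave -0.213 to 0.279 for Cela2a, -0.660 to 0.0749 for Cpb1, -0.784 to 0.631 for Ctrb1, -0.0841 to 0.222 for Ghr, -0.223 to 1.16 for Igf1 and -0.410 to 0.201 for Socs2. Dim probes limit what can be called, since only a bound is known for a sex not well above background.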
